A study of Homo sapiens with 6 samples.

Results

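RAB proteins are small GTPases that mark the membranes of the secretory and endocytic routes. Each is held in the cytosol in its GDP-bound form, is loaded with GTP on its own compartment by an exchange factor, recruits effector proteins that move, tether or fuse vesicles, and is switched off by a GTPase-activating protein, most of which carry a TBC domain. A lipid tail added by the RAB geranylgeranyl transferase anchors them, and many of them exist as paralogs that share a compartment. Here the RAB genes were followed in K562 cells, a human line from chronic myeloid leukemia that carries the Bcr-Abl fusion. The members were the protein-coding genes whose symbol is RAB followed by a number and at most 1 letter and 1 further digit. Of 62 such genes in the annotation, 44 had a row in the deposited table of 12486 genes, and all 44 passed the filter of a mean of at least 0.1 FPKM (fragments scaled by transcript length and library size), so all were tested.

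The study asked what changes in these cells when the long noncoding RNA lncRNA-IUR1, spelled lncRNA-up91 in the labels, is knocked down. Stable K562 cells expressed an shRNA that targets luciferase as a control (sh-luc, 3 libraries) or 1 shRNA that targets the lncRNA (sh-IUR1, 3 libraries), and the labels name no other treatment for these libraries. Each group holds a library without a number, called unnumbered here, and the libraries r1 and r2. The methods speak of 3 independent groups of cells, the labels do not say how the cultures were separated, and the p-values measure the spread between these libraries, which may in part be technical. The level of the target was not analysed here, and with 1 shRNA an effect of the hairpin itself cannot be told apart from the loss of the target.

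The libraries carried the label of the line. All 12 erythroleukaemia markers, such as the fetal and embryonic globins, GATA1 and TFRC, had a row, and their summed FPKM ranged from 5350 to 6902 in sh-luc and from 5251 to 5841 in sh-IUR1. The T cell list had 3 of 6 genes with a row, with a summed FPKM of 3.51 to 5.08, and the B cell list had 2 of 5, with 0.98 to 1.36. Of the monocyte and granulocyte list 2 of 6 had a row (summed FPKM 116 to 129), while CD14, CSF1R, ELANE and MPO had none. The 2 were LYZ, at a mean of 113 FPKM in sh-luc and 115 FPKM in sh-IUR1, and CD68, at 10.2 and 9.35 FPKM. Of the epithelial list 2 of 5 had a row (39.4 to 48.9), EPCAM at 42.4 and 39.8 FPKM and CLDN3 at 1.22 and 1.26 FPKM. The unnumbered sh-luc library stood apart: its score on the first principal component, which held 59.3% of the variance, was -19.8, against -3.75 to 13.0 for the other libraries. It also had the lowest mean of 22 integrated stress response genes, 5.34 on the log2(FPKM + 1) scale against 6.03 to 6.53. For several counts and genes the value without it is given as well.

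Among the 44 RAB genes, none passed the threshold of an adjusted p-value under 0.05 in limma (Benjamini-Hochberg over 12276 genes), and the background was 0% of all genes tested. At an unadjusted p-value under 0.05, 3 RAB genes (6.82%) were found in limma, against a background of 2.65%, or 325 genes. These 3 were RAB38 and RAB36, lower in every sh-IUR1 library than in every sh-luc library, and RAB4B, higher in every one. They were also the 3 RAB genes whose groups did not overlap, again 6.82%, close to the background of 7.07% (868 genes), of which 4.04% of all genes were higher and 3.03% lower in sh-IUR1. The median log2 fold change of the RAB genes was -0.0062, with 21 above 0 and 23 below, against a median of 0.019 with 58.0% above 0 over all genes. Without the unnumbered sh-luc library the RAB median was 0.0095, with 24 above 0 and 20 below, against a median of 0.0047 over all genes. The count of 3 at an unadjusted p-value under 0.05 in limma was 6 (13.6%) without sh-luc r1, where the background was 6.97%, and 4 (9.09%) without the unnumbered sh-luc library, where it was 1.80%. It was 1, RAB38, without either sh-luc r2 (background 2.42%) or sh-IUR1 r1 (1.89%). The smallest adjusted p-value of any RAB gene was 0.930 in limma.

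**Figure D1:**
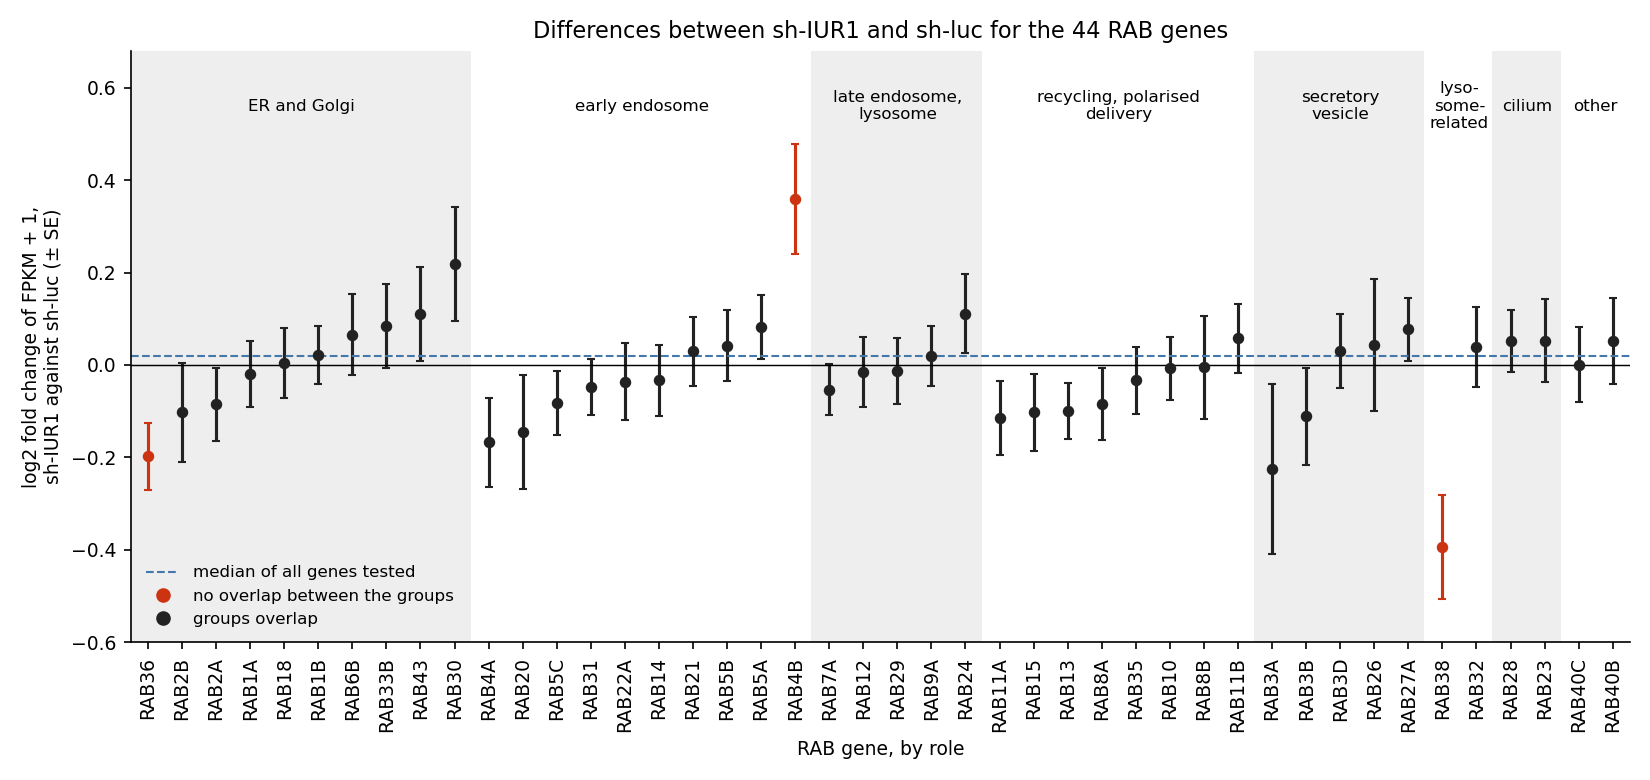
Log2 fold change of FPKM + 1 (vertical axis, sh-IUR1 against sh-luc, ± SE from limma, n = 3 and 3) for the 44 RAB genes, ordered within each role; red points are genes whose groups did not overlap and the dashed line is the median of all genes tested, 0.019. RAB38 lies lowest at -0.39 and RAB4B highest at 0.36, and 41 of the 44 points are genes whose groups overlapped.

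The paralogs RAB4A and RAB4B were the closely related pair in which the balance between the 2 genes separated the groups, so the sequence in front of both starts is shown first. The 250 bases before each start were read from RefSeq (GRCh38.p14), 5′ to 3′ on the gene's own strand, which is the plus strand for both. RAB4A lies at chr1:229270861-229271110 and RAB4B at chr19:40777997-40778246. Capitals mark the GC box GGGCGG and the E-box CACGTG, on either strand, which do not overlap in these windows.
RAB4A: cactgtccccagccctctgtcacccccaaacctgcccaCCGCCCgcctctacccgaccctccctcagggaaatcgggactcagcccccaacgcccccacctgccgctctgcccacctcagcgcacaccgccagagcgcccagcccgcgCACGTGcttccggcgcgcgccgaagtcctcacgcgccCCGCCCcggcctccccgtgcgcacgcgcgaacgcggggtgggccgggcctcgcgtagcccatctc
RAB4B: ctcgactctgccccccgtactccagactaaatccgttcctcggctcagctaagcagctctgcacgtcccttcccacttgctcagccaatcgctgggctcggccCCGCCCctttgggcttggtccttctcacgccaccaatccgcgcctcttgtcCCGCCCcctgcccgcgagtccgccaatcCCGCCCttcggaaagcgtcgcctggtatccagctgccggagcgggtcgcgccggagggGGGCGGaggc

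Both windows were rich in GC, 75.2% for RAB4A and 68.4% for RAB4B, with 31 and 25 CpG dinucleotides. The window of RAB4A held 2 GC boxes and 1 E-box, and that of RAB4B held 4 GC boxes. Promoter sequence matched 35 of the 44 members, some with several starts, and RAB1A, RAB2A, RAB12, RAB15, RAB20, RAB26, RAB33B, RAB36 and RAB38 had no entry. Counting a gene once if any of its windows held a motif, the GC box was found for 33 of the 35 RAB genes (94.3%), for 46.2% of all 27305 genes of the promoter set and for 73.8% of the 10088 of them that had a row in the expression table, as the RAB genes did. The E-box was found for 5 of 35 (14.3%, against 7.73% of the promoter set and 11.4% of those with a row), namely RAB4A, RAB5A, RAB21, RAB24 and RAB31. The STAT motif TTCNNNGAA was found for RAB1B and RAB30 (5.71%, against 8.09% and 7.38%), the GATA motif TGATAA for RAB23, RAB30 and RAB3B (8.57%, against 8.22% and 5.13%), AGATAA for RAB27A, RAB2B, RAB3A and RAB3B (11.4%, against 11.1% and 6.83%), and the ATF4 motif TGATGNAA for RAB28 (2.86%, against 3.89% and 2.20%). The median GC content was 65.6% over the RAB windows and 58.0% over all windows of the promoter set. It was not computed over the genes with a row, so it cannot be read as a trait of the RAB genes. These are matches of letters and say nothing of binding.

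The family covered a wide range of levels. On the FPKM scale, which is per length of transcript, 3 genes had a mean over 100 FPKM, 18 a mean of 10 to 100, 20 a mean of 1 to 10, and 3 (RAB20, RAB15 and RAB36) a mean under 1. The 5 highest genes, RAB1B, RAB5C, RAB7A, RAB13 and RAB10, held 49.0% of the summed level. Only 9 of the 43 neighbours in the order of levels were separated in all 6 libraries; RAB5C and RAB7A were, at 138 and 109 FPKM, while RAB1B and RAB5C, at 143 and 138 FPKM, were not. The other 18 RAB genes had no row, which can mean a low level or a value that hardly varied, since the table holds only genes whose standard deviation over the libraries is at least 0.05 FPKM. They were RAB3C, RAB6C, RAB6D, RAB7B, RAB9B, RAB17, RAB19, RAB25, RAB27B, RAB33A, RAB34, RAB37, RAB39A, RAB39B, RAB40A, RAB41, RAB42 and RAB44.

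**Figure D2:**
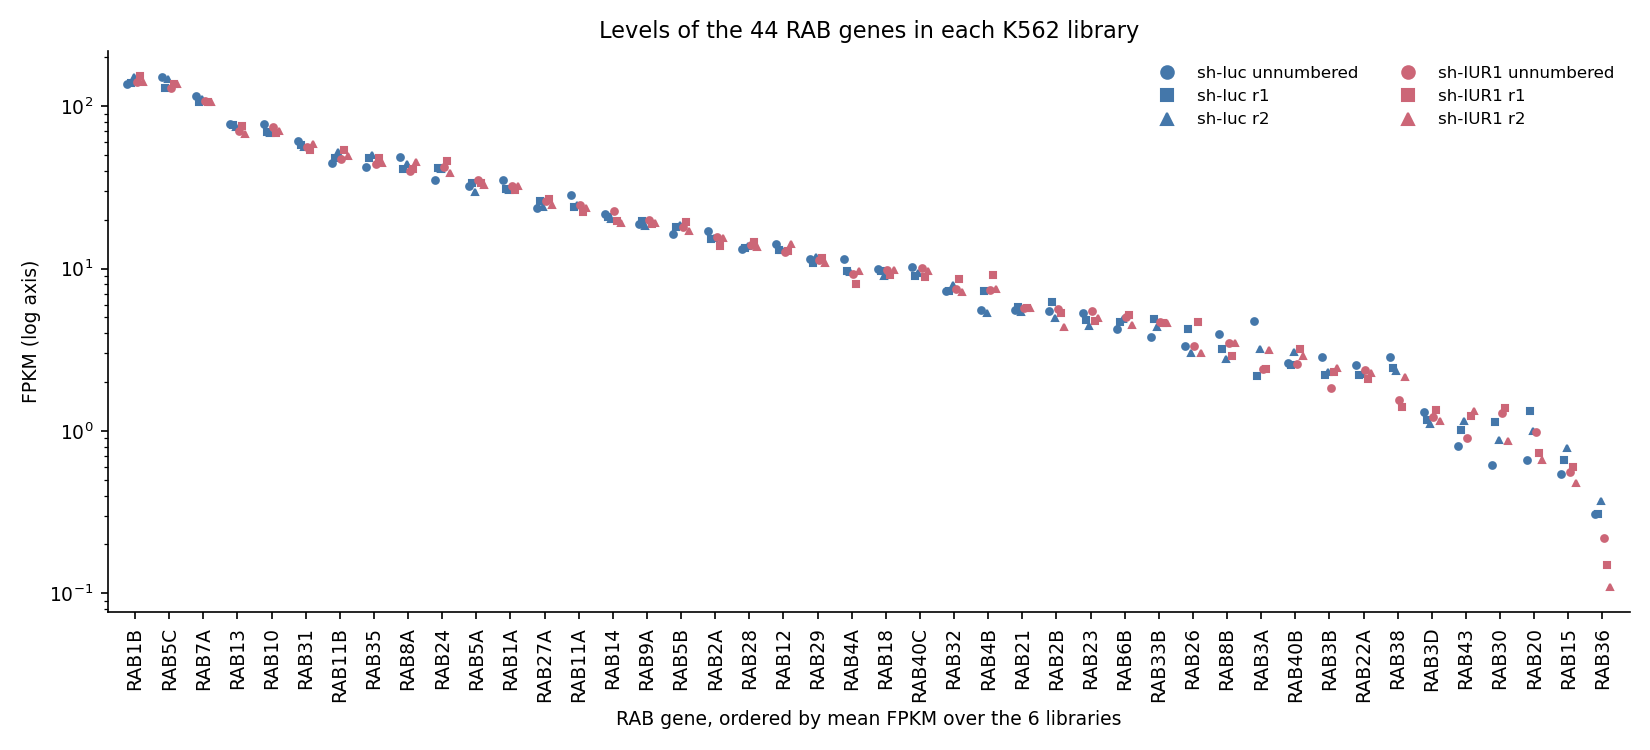
FPKM (vertical log axis) of each RAB gene in each of the 6 libraries, ordered by mean level; blue symbols are sh-luc and red symbols sh-IUR1, with a circle for the unnumbered library, a square for r1 and a triangle for r2. Levels run from a mean of 143 FPKM for RAB1B to 0.245 for RAB36, and the groups separate for RAB38, RAB4B and RAB36.

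The summed level of the family did not separate the groups. In the order unnumbered, r1 and r2, which is kept below, it was 1116, 1073 and 1105 FPKM in sh-luc against 1076, 1099 and 1071 FPKM in sh-IUR1. The sh-IUR1 mean was 16.0 FPKM below the sh-luc mean of 1098 ± 22.6 (SD, n = 3), with an exact two-sided permutation p of 0.3, where 0.1 is the smallest p that 3 against 3 libraries allow. The difference was -6.89 FPKM without the unnumbered sh-luc library, -28.6 FPKM without sh-luc r1, -24.3 FPKM without sh-IUR1 r1 and -10.6 FPKM without sh-IUR1 r2. In bulk libraries, fewer cells expressing a gene and less of its RNA per cell cannot be told apart.

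RAB1A and RAB1B, which act between the endoplasmic reticulum (ER) and the Golgi, were measured at very different levels. RAB1B was at 137, 138 and 151 FPKM in sh-luc and at 140, 153 and 140 FPKM in sh-IUR1. RAB1A was at 35.1, 30.8 and 30.6 FPKM in sh-luc and at 32.3, 30.4 and 32.4 FPKM in sh-IUR1. Both sets of values overlapped between the groups, and RAB1B held 79.5 to 83.4% of the summed level of the pair in every library. In the canonical RAB1B transcript, 29.5% of the 50-base windows also occur in other annotated genes, among them the pseudogene RAB1C, so its level is less certain than that of RAB1A (4.67%). Window matches on either strand were counted, here and below, and the strands were not told apart.

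The other genes of the ER and Golgi included 1 whose groups did not overlap. RAB2A, which serves traffic between the Golgi and the ER, was at 17.1, 15.2 and 15.4 FPKM in sh-luc and at 15.7, 13.8 and 15.3 FPKM in sh-IUR1, with overlapping groups. RAB18, a RAB of the ER and lipid droplets, was at 9.97, 9.64 and 8.98 FPKM in sh-luc against 9.84, 9.07 and 9.77 FPKM. RAB30, a Golgi RAB, was at 0.62, 1.13 and 0.88 FPKM in sh-luc and at 1.29, 1.39 and 0.87 FPKM in sh-IUR1. It was among the 5 members with the widest range over the libraries, 0.56 on the log2(FPKM + 1) scale, and its lowest value lay in the unnumbered sh-luc library. The log2 fold change was 0.22, and 0.12 without that library. RAB2B, RAB6B, RAB33B and RAB43 had log2 fold changes between -0.10 and 0.11, all with overlapping groups; 90.7% of the windows of RAB43 are shared, chiefly with the readthrough gene ISY1-RAB43, so its value is uncertain. Over the 10 genes of this role the median log2 fold change was 0.013.

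RAB36, another Golgi RAB, was the lowest of the 44 members. Its levels were 0.31, 0.31 and 0.37 FPKM in sh-luc and 0.22, 0.15 and 0.11 FPKM in sh-IUR1. Every sh-IUR1 library was below every sh-luc library, and the ratio of the means was 0.485. On the log2(FPKM + 1) scale, which understates changes of low genes, the fold change was -0.20 with a standard error of 0.073 (limma, adjusted p = 0.930), and with a pseudocount of 0.1 it was -0.74. With the fragments behind these values unknown, a level this low may rest on few reads. The unadjusted limma p-value was no longer under 0.05 without sh-luc r2, sh-IUR1 r1 or sh-IUR1 r2. The gene lies on chromosome 22 from 23145324 to 23169280 (GRCh38.p14), inside RSPH14, which had no row, and 11228 bases before BCR, the gene that supplies one end of the Bcr-Abl fusion.

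The early endosome genes are led by the RAB5 paralogs, which drive the fusion of early endosomes. RAB5C was at 150, 128 and 148 FPKM in sh-luc and at 129, 137 and 136 FPKM in sh-IUR1. RAB5A was at 32.3, 33.7 and 29.5 FPKM in sh-luc and at 35.0, 33.4 and 32.8 FPKM in sh-IUR1. RAB5B was at 16.4, 18.1 and 18.4 FPKM in sh-luc and at 18.1, 19.5 and 17.0 FPKM in sh-IUR1. All 3 overlapped between the groups, with log2 fold changes of -0.08, 0.08 and 0.04 in that order. RAB5C supplied 70.8 to 75.5% of the summed RAB5 level in each library, RAB5A 15.1 to 19.2% and RAB5B 8.24 to 10.3%, and the shares overlapped as well. In the canonical RAB5C transcript 31.7% of the windows also occur in another annotated gene, so its level and share are less certain.

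RAB4A and RAB4B, which return cargo rapidly from early endosomes to the surface, lay on opposite sides of 0. RAB4B was at 5.54, 7.26 and 5.34 FPKM in sh-luc and at 7.40, 9.17 and 7.46 FPKM in sh-IUR1. RAB4A was at 11.5, 9.66 and 9.54 FPKM in sh-luc and at 9.20, 8.06 and 9.72 FPKM in sh-IUR1. The groups of RAB4B did not overlap, although sh-luc r1 at 7.26 FPKM came close to the lowest sh-IUR1 value, while RAB4A overlapped through sh-IUR1 r2. The log2 fold change of RAB4B was 0.36 with a standard error of 0.120 (limma, adjusted p = 0.930), and its ratio of means was 1.32. That of RAB4A was -0.17 with a standard error of 0.097 (limma, adjusted p = 0.930), and -0.09 without the unnumbered sh-luc library, its highest. The unadjusted limma p-value of RAB4B was no longer under 0.05 without sh-luc r2 or sh-IUR1 r1, while without the unnumbered sh-luc library it was, at a log2 fold change of 0.31.

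RAB4B therefore made up 32.5, 42.9 and 35.9% of the summed RAB4 level in sh-luc against 44.6, 53.2 and 43.4% in sh-IUR1. The sh-IUR1 shares were all above the sh-luc shares, by 9.97 percentage points on average (7.68 without the unnumbered sh-luc library), with an exact permutation p of 0.1, the smallest possible, and 0.84 after adjustment over the 14 shares compared. A share within a library does not move with the scaling of the library, but it is not free of base composition. Transcript GC content was 61.6% for RAB4B and 39.5% for RAB4A. The lowest share, 32.5%, lay in the unnumbered sh-luc library and the highest, 53.2%, in sh-IUR1 r1. Over all genes, GC content correlated with the deviations in these libraries at -0.29 and 0.35. No share was computed after a GC correction, so the part of base composition was not tested. As 97.8% of the 50-base windows of the canonical RAB4B transcript also occur in other annotated genes, chiefly the readthrough genes MIA-RAB4B and RAB4B-EGLN2, which had no row, the value of RAB4B depends on how fragments were assigned among them and is uncertain. In RAB4A 1 of 2938 windows was shared.

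**Figure D3:**
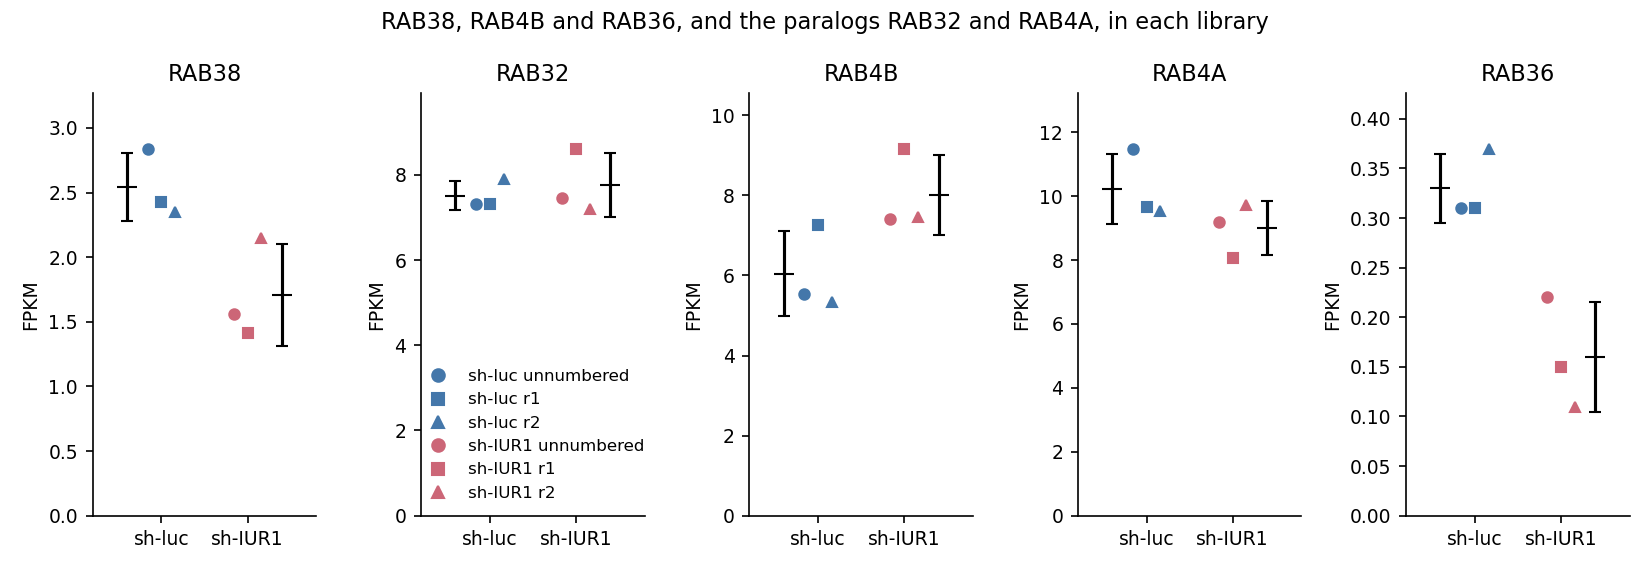
FPKM (vertical axis from 0) of RAB38, RAB32, RAB4B, RAB4A and RAB36 in each library, with the mean and SD (n = 3) of each group beside the points; symbols are as in the plot of levels. RAB38 and RAB36 are lower and RAB4B higher in all sh-IUR1 libraries, while RAB32 (7.51 against 7.76 FPKM) and RAB4A overlap.

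The remaining early endosome genes overlapped between the groups. RAB14, found on endosomes and the Golgi, was at 21.6, 20.8 and 20.3 FPKM in sh-luc and at 22.5, 19.8 and 19.1 FPKM in sh-IUR1. RAB21, RAB22A and RAB31 had log2 fold changes between -0.05 and 0.03. RAB31 supplied 96.0 to 96.3% of the level it shares with its paralog RAB22A, the steadiest of the shares. RAB20, a RAB of phagosomes, was at 0.66, 1.32 and 1.0 FPKM in sh-luc and at 0.98, 0.73 and 0.66 FPKM in sh-IUR1, so the sh-luc values spanned the whole range. The low sh-luc value of RAB20 was that of the unnumbered library. Its log2 fold change was -0.15, and -0.27 without that library. There the groups of RAB20 did not overlap, as for 12.6% of all genes. Its unadjusted limma p-value was then under 0.05, but the adjusted threshold was not passed. Over the 10 genes the median log2 fold change was -0.035.

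Late endosome and lysosome genes differed little. RAB7A, which controls the passage from late endosomes to lysosomes, was at 115, 105 and 111 FPKM in sh-luc and at 107, 106 and 106 FPKM in sh-IUR1. The sh-IUR1 libraries lay within the sh-luc range, and the standard deviation was 0.458 FPKM in sh-IUR1 against 5.14 FPKM in sh-luc. RAB24, linked to autophagy, had the largest log2 fold change of the role, 0.11, at 39.1 ± 3.67 FPKM in sh-luc and 42.3 ± 3.45 FPKM in sh-IUR1 (SD, n = 3 each). Its low value of 34.9 FPKM came from the unnumbered sh-luc library, and the log2 fold change was 0.03 without it. RAB9A, RAB12 and RAB29 had log2 fold changes between -0.01 and 0.02, and the median of the 5 genes was -0.013.

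The genes of recycling endosomes and polarised delivery were below 0 in 7 of 8 cases, with a median log2 fold change of -0.059, and none was without overlap. Without the unnumbered sh-luc library 5 of the 8 were below 0. RAB10, which delivers vesicles to the plasma membrane, was at 77.6, 69.5 and 68.3 FPKM in sh-luc and at 74.9, 68.5 and 70.7 FPKM in sh-IUR1. RAB13, known from cell junctions, was at 77.1, 76.3 and 74.8 FPKM in sh-luc and at 70.5, 75.4 and 67.0 FPKM in sh-IUR1. RAB8A, an exocytic RAB, was at 48.6, 41.2 and 44.3 FPKM in sh-luc and at 39.7, 41.1 and 45.5 FPKM in sh-IUR1. Of these, RAB13 came nearest to separation, with only sh-IUR1 r1 above the lowest sh-luc library; its log2 fold change was -0.10 with a standard error of 0.061 (limma, adjusted p = 0.930). In addition, 56.9% of the windows of RAB13 occur in other annotated genes, which leaves its level uncertain.

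RAB11A and RAB11B, the main RABs of recycling endosomes, had opposite signs. RAB11A was at 28.4, 23.9 and 24.5 FPKM in sh-luc and at 24.6, 22.3 and 23.7 FPKM in sh-IUR1, and RAB11B was at 44.5, 47.9 and 52.0 FPKM against 47.4, 53.5 and 49.5 FPKM. The unnumbered sh-luc library held the highest RAB11A value and the lowest RAB11B value. The share of RAB11B in the pair was accordingly lowest there, 61.0%, against 65.8 to 70.6% in the other libraries, and the groups overlapped. Without that library the log2 fold changes were -0.04 for RAB11A and 0.0036 for RAB11B, against -0.12 and 0.06 with it, and the difference in share fell from 2.79 to 0.669 percentage points. RAB8B, RAB15 and RAB35 had log2 fold changes between -0.10 and -0.01. Without the unnumbered sh-luc library they were 0.10, -0.16 and -0.10 in that order. The summed level of the 8 genes was 323, 310 and 317 FPKM in sh-luc and 305, 312 and 305 FPKM in sh-IUR1, with an exact permutation p of 0.2.

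Secretory vesicle genes ranged over the libraries from 0.16 (RAB3D) and 0.18 (RAB27A) to 0.51 (RAB26) and 0.85 (RAB3A) on the log2(FPKM + 1) scale, where the median range was 0.24 over the 44 RAB genes and 0.26 over all genes tested. RAB27A, which docks secretory granules and the vesicles released as exosomes, was at 23.6, 25.9 and 23.9 FPKM in sh-luc and at 26.2, 26.8 and 24.5 FPKM in sh-IUR1, with overlapping groups. RAB3A, a RAB of regulated exocytosis, was at 4.74, 2.19 and 3.2 FPKM in sh-luc and at 2.39, 2.41 and 3.16 FPKM in sh-IUR1. RAB26, of secretory granules, was at 3.33, 4.26 and 3.0 FPKM in sh-luc and at 3.34, 4.69 and 3.03 FPKM in sh-IUR1. RAB3A had the widest range of the whole family, and both its highest and its lowest value were sh-luc libraries. Its log2 fold change was -0.23, -0.0094 without the unnumbered sh-luc library and -0.43 without sh-luc r1. RAB26 was high in both r1 libraries, and its log2 fold change of 0.04 was -0.11 without sh-IUR1 r1. RAB3B and RAB3D had log2 fold changes of -0.11 and 0.03, and the median of the 5 genes was 0.031.

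RAB38 and RAB32 build lysosome-related organelles such as melanosomes and platelet granules. RAB38 was at 2.84, 2.43 and 2.35 FPKM in sh-luc and at 1.56, 1.41 and 2.15 FPKM in sh-IUR1. RAB32 was at 7.31, 7.32 and 7.90 FPKM in sh-luc and at 7.46, 8.62 and 7.20 FPKM in sh-IUR1. RAB38 was lower in every sh-IUR1 library, although sh-IUR1 r2 lay just under sh-luc r2, and RAB32 overlapped. The ratio of the means of RAB38 was 0.672 and its log2 fold change -0.39 with a standard error of 0.112 (limma, adjusted p = 0.930). This was the most negative of the family on the log2(FPKM + 1) scale. RAB36 had a lower ratio of means, 0.485, and with a pseudocount of 0.1 it was at -0.74 and RAB38 at -0.56. The unadjusted limma p-value of RAB38 stayed under 0.05 with any single library left out, but the adjusted threshold was not passed. Its log2 fold change was -0.33 without the unnumbered sh-luc library, -0.32 without sh-IUR1 r1 and -0.51 without sh-IUR1 r2. As RAB38 was already known from these data as a lower gene, its unadjusted p-values are no independent support. RAB38 made up 28.0, 24.9 and 22.9% of the summed level of the pair in sh-luc against 17.3, 14.1 and 23.0% in sh-IUR1, and sh-IUR1 r2 fell among the sh-luc values (exact permutation p = 0.2, adjusted 0.84).

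**Figure D4:**
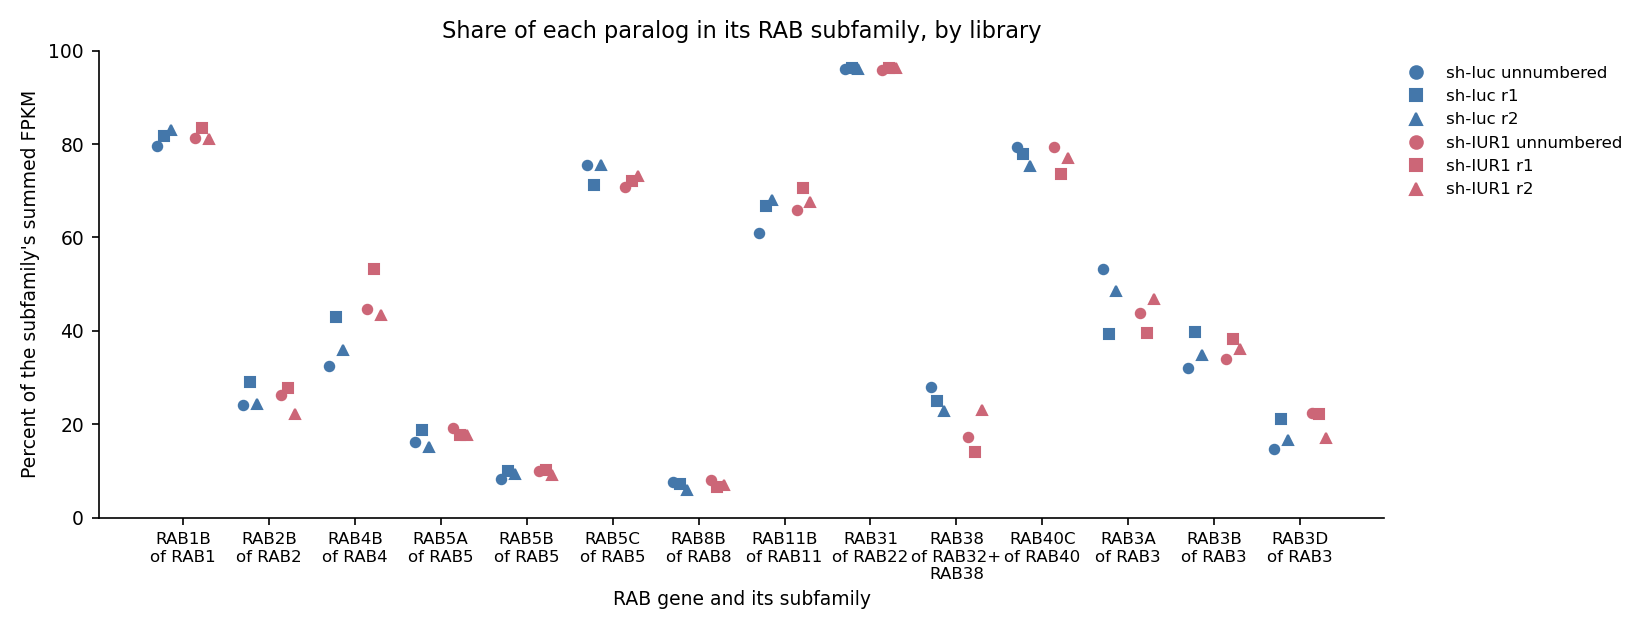
Percent of the summed FPKM of its subfamily supplied by each gene (vertical axis, 0 to 100) in each library, blue for sh-luc and red for sh-IUR1 with symbols as in the plot of levels; of a subfamily with 2 measured genes 1 is shown. Of the 14 shares, that of RAB4B separates the groups, at 32.5 to 42.9% in sh-luc and 43.4 to 53.2% in sh-IUR1.

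HPS1 and HPS4, which together form the exchange factor of RAB32 and RAB38, overlapped between the groups. HPS1 was at 21.4, 22.2 and 22.9 FPKM in sh-luc and at 21.9, 23.3 and 20.3 FPKM in sh-IUR1. HPS4 was at 23.3, 30.6 and 30.7 FPKM in sh-luc and at 30.1, 31.7 and 29.4 FPKM in sh-IUR1, with the low value in the unnumbered sh-luc library, and its log2 fold change of 0.12 was -0.012 without that library. ANKRD27, an effector of both RABs and an exchange factor of RAB21, had a log2 fold change of -0.048. Over the 6 libraries, the RAB genes whose log2(FPKM + 1) followed RAB38 most closely were RAB4A (Pearson r = 0.89), RAB31 (0.83) and RAB8A (0.76). Without the unnumbered sh-luc library the values were 0.84, 0.72 and 0.59 over 5 libraries. The points share the libraries and their normalization, and these values are a description.

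The genes outside these routes did not separate the groups. RAB23 and RAB28, both tied to the cilium, each had a log2 fold change of 0.05, and RAB40B and RAB40C, which carry a domain of ubiquitin ligase adaptors, had 0.05 and 0.0009. In RAB23 58.4% of the windows occur in other genes on either strand, chiefly its neighbour BAG2, which leaves its level of 4.96 FPKM uncertain. RAB40C held 73.5 to 79.4% of the summed level of the RAB40 pair.

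For 41 of the 44 RAB genes the range within the sh-luc group alone was larger than the difference between the group means. That sets a range of single values against a difference of means. It was not counted over all genes, so it cannot be read as a trait of the RAB genes. The unnumbered sh-luc library held the highest value of 18 RAB genes and the lowest of 12, together 68.2% of the members, near the 62.5% of all genes tested. By direction it was the highest for 40.9% of RAB genes against 24.1% of all genes, and the lowest for 27.3% against 38.4%. The part of its lower stress level in these values was not tested. Base composition moved with the libraries as well. Across the 44 RAB genes, the correlation of transcript GC content with a library's deviation from the gene's mean was -0.21, -0.04 and 0.33 in sh-luc (unnumbered, r1, r2) and -0.37, 0.33 and -0.05 in sh-IUR1, and across 11923 genes of the table it was -0.29, 0.02, 0.38, -0.20, 0.35 and -0.13 in the same order. These correlations are across genes, which are not independent replicates. When the libraries were corrected for GC and transcript length by loess, RAB38 was at -0.39, RAB4B at 0.34 and RAB36 at -0.24 on the log2 scale, a setting chosen after the data were seen.

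**Figure D5:**
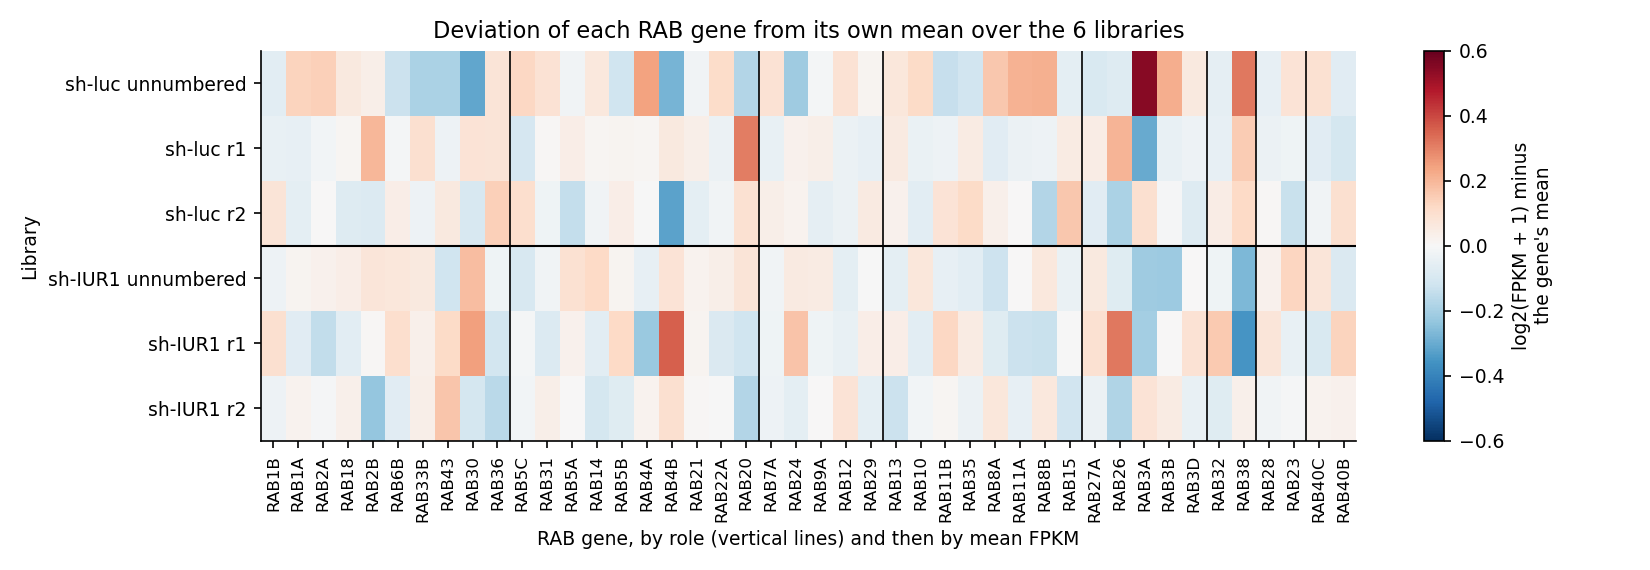
Deviation of log2(FPKM + 1) of each RAB gene (columns, by role) from its own mean over the 6 libraries (rows); red is above and blue below the mean, and the horizontal line divides sh-luc from sh-IUR1. Among the strongest colors are those of the unnumbered sh-luc library, where RAB3A reaches 4.74 FPKM, and of sh-IUR1 r1, where RAB4B reaches 9.17 FPKM.

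The machinery that loads, switches and reads RAB proteins was examined as 4 lists, of which 134 of 153 genes had a row and were tested. At an unadjusted p-value under 0.05 in limma there were 2 (1.49%, background 2.65%), and 8 (5.97%, background 7.07%) did not overlap between the groups, 7 higher and 1 lower in sh-IUR1. The median log2 fold change was 0.034, with 96 of 134 above 0, against 0.019 and 58.0% over all genes. Without the unnumbered sh-luc library the median over all genes was 0.0047. That of the 134 genes was not computed without it, so the lean is not read as a difference between the groups.

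Both genes at an unadjusted p-value under 0.05 were exchange factors. DENND4A, an exchange factor of RAB10, was at 2.34, 2.93 and 2.69 FPKM in sh-luc and at 3.47, 3.25 and 3.58 FPKM in sh-IUR1. RAB3IP (Rabin8), an exchange factor of RAB8, was at 0.97, 1.31 and 1.31 FPKM in sh-luc and at 1.53, 1.74 and 1.64 FPKM in sh-IUR1. Both were higher in all sh-IUR1 libraries, with log2 fold changes of 0.28 and 0.27 and adjusted p-values of 0.930 in limma. Without the unnumbered sh-luc library they were 0.22 and 0.19, and the unadjusted p-value of RAB3IP was no longer under 0.05. Of 48 exchange factors 3 (6.25%, background 7.07%) did not overlap, the third being RAB3IL1, which was lower with a log2 fold change of -0.075. RAB3IL1 and the genes without overlap named in the next paragraph were chosen after their values were seen. RAB10 and RAB8A, the partners of DENND4A and RAB3IP, overlapped between the groups, as described above.

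The other lists held no gene at an unadjusted p-value under 0.05. All 8 genes of prenylation and recycling were measured and overlapped, from the escort proteins CHM and CHML to GDI2, the GDP dissociation inhibitor at 178 FPKM in sh-luc and 180 FPKM in sh-IUR1. Of 36 TBC-domain and RAB3GAP genes 3 (8.33%) did not overlap, near the background of 7.07%. They were TBC1D22A, TBC1D17 and TBC1D24, all higher, with log2 fold changes of 0.14, 0.14 and 0.059. Of 42 effectors 2 (4.76%, below that background) did not overlap, INPP5B and APPL2, both higher, with log2 fold changes of 0.13 and 0.088. With all 6 libraries, the medians of the 4 lists were 0.032 for prenylation, 0.036 for exchange factors, 0.027 for TBC-domain genes and 0.043 for effectors.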

How the data were processed

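RNA-seq was performed on 6 K562 libraries, 3 sh-luc and 3 sh-IUR1. The authors removed adaptors, masked poor sequence and aligned to hg38; the submitters' processing notes name SAMtools 0.1.19. The aligner, annotation and treatment of read pairs are not given in the sources used here. The deposited values are FPKM with 2 decimals. The authors also deposited a score (the z-score of each gene's FPKM over the libraries), a cluster number and a fraction (cluster membership), which were not used. Summed over the table, FPKM came to 579820 to 606240 per library. Whole fragments could not be recovered from the low values (at best 35.3% of 51 values were whole within 0.1), so the depth is unknown and no counting interval is given.

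Entrez identifiers were matched to RefSeq symbols (12363 of 12486). The family rule leaves out 1 further gene, which is not reported here. The members and lists were chosen with earlier results of these data known; RAB38 was already known from them as a lower gene. After log2(FPKM + 1), 12276 genes whose mean reached 0.1 FPKM were fitted in limma 3.58.1 (R 4.3.3; lmFit, eBayes with a trend), with p-values adjusted by Benjamini-Hochberg over all of them. Sums and shares were compared by two-sided exact permutation tests (smallest p 0.1). Values in each library are given for members at an unadjusted p under 0.05, and for members without overlap whose mean reached 1 FPKM. They are also given for the 5 highest and the 5 most variable members, and for a list of well-known members. RAB36 met this rule by its unadjusted p. The values of RAB4A and RAB20, and the means of RAB24, lie outside it and were added after they were seen. Alternatives were another pseudocount, other filters, median-ratio and quantile scaling, eBayes without a trend, an unmoderated model, a replicate block, each library left out and a GC and length correction (loess, span 0.5, chosen after seeing the data). The fit was tested on simulated data. Other steps ran in Python 3.11.15 with pandas 2.3.3, numpy 2.4.6, matplotlib 3.10.9 and scipy 1.17.1.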

Additional observations from a re-analysis of the deposited data

How the results depend on the processing

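No RAB gene and no other gene passed an adjusted p-value under 0.05 in limma under any alternative; the lowest adjusted p-value of a RAB gene in any of them was 0.667, and a linear model without moderation, read at unadjusted p-values, passed 344 genes, of which 2 RAB genes (RAB36 and RAB38). The correlation of the deviations of same-numbered libraries was 0.044 (unnumbered), 0.39 (r1) and -0.34 (r2). With no differently numbered libraries beside them, these values cannot decide whether the numbers pair the libraries. With a replicate block, RAB36, RAB38 and RAB4B stayed the RAB genes at an unadjusted p under 0.05. The count over all genes was then 533 (4.34%) instead of 325 (2.65%), and that of regulators and effectors was 4 of 134 instead of 2. In the unmoderated model regulators and effectors numbered 5 of 134, against 2.80% of all genes.

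With each library left out in turn, RAB genes at an unadjusted p under 0.05 numbered 1 to 6 of 44, and regulators and effectors 2 to 6 of 134. All genes numbered 158 to 856 (1.29% to 6.97%), and all 3 counts were highest without sh-luc r1. The counts of regulators and effectors thus rose with the background. RAB genes without overlap numbered 4 to 11, where the background rose to between 11.9% and 25.2% because fewer values are compared. RAB36, RAB38 and RAB4B were among them each time. That had to be so, since groups apart in all libraries stay apart when a library is left out, and it says nothing of stability. With the GC and length correction, added after the data were seen, 7 RAB genes (15.9%) did not overlap, against 8.97% of all genes under the same correction. The median log2 fold change of the RAB genes lay between -0.034 (without sh-luc r2) and 0.010.

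RAB38 stayed between -0.32 and -0.56 on the log2 scale and at an unadjusted p under 0.05 in every alternative. The alternatives draw on the same libraries, from which RAB38 was already known as a lower gene, so they are no independent support. RAB4B stayed between 0.27 and 0.48 and RAB36 between -0.17 and -0.74; RAB4B passed 0.05 neither in the unmoderated model nor without sh-luc r2 or sh-IUR1 r1. Signs turned for RAB26 (-0.0054 with quantile normalization, and -0.11 to 0.16 with a library left out), HPS1 (-0.066 to 0.028) and HPS4 (-0.012 to 0.18); the cause was not tested. The other 147 of 153 alternatives over the 11 genes followed kept the sign, and no adjusted call changed. Among these 11 genes the side of an unadjusted 0.05 was lost in 6 (RAB36, RAB4B and RAB3IP) and gained in 3 (RAB30 and RAB3A). Outside them, an unadjusted p under 0.05 in limma was reached by RAB20 without the unnumbered sh-luc library and by RAB5C without sh-luc r1. RAB4A reached it with the GC and length correction. Over all settings 25 of the 44 members kept their sign throughout. With the depth unknown, the number of reads behind low levels such as that of RAB36 is unknown too.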
